A study of Drosophila melanogaster with 4 samples.

Results

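The genes that lie beside the centromeres on chromosome arms 2L, 3L, 3R and X were followed in testes of Drosophila melanogaster, in wild-type flies and in mutants of Su(var)3-9. They were taken by position on genome build dm6, as loci that start at 22 Mb or beyond on 2L, 23 Mb or beyond on 3L, below 4.6 Mb on 3R, and 22 Mb or beyond on X. Of 16745 listed loci, 268 start in these windows, and 176 of them had a mean of at least 1 FPKM (fragments scaled to transcript length in kilobases and to library depth) over the 4 libraries. Names of ribosomal proteins, mitochondrial ribosomal proteins and proteasome subunits, and CR numbers, which mostly stand for non-coding genes and pseudogenes, removed 29 of these. The remaining 147 loci, 30 on 2L, 25 on 3L, 62 on 3R and 30 on X, are described here, of 10784 loci tested in all. A further 92 window loci were under the minimum of 1 FPKM. The names of 146 of the 147 matched a reference gene, 144 of them protein coding, and 137 had the reference start.

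Pericentromeric heterochromatin is the compact, repeat-rich chromatin that flanks the centromeres, marked by methylation of lysine 9 of histone H3 and bound by the protein HP1. Su(var)3-9 is one of the histone methyltransferases that place this mark, and its mutations relieve the silencing of euchromatic genes moved next to heterochromatin (position-effect variegation). Some genes reside in heterochromatin normally, and for classic examples such as light (lt) the surrounding heterochromatin is known to be needed for full expression when the gene is moved by a rearrangement.

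Each genotype was represented by 2 libraries of polyadenylated RNA, each made from 50 testes of males 3 days old kept at 23 °C, and the series describes the replicates as biological. The flies of one group carried a Su(var)3-9 mutation whose allele the labels do not give, and the other group was wild type, with no strain named. No other allele or agent is given for either group. The transcript of Su(var)3-9 itself had levels of 7.93 and 9.74 FPKM in wild type, and of 0 and 7.83 FPKM in replicates 1 and 2 labelled mutant, with an adjusted p of 0.339 (limma). Mutant replicate 2 thus lay close to wild type, so the transcript level did not separate the genotypes, and the groups rest on the labels.

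The estimated number of fragments was 1446647 and 1468278 in the mutant libraries and 3207719 and 3366747 in the wild-type libraries. A median of 30.0 and 31 fragments therefore stood behind a pericentromeric gene in the mutant libraries, against 79.1 and 88.1 in wild type. Of the 147 genes, 60 and 55 had under 20 fragments in the mutant libraries and 26 and 23 in the wild-type libraries. Of 9 testis germline markers, 8 were above 0, with summed levels of 28420 and 26390 FPKM in mutant and 15250 and 13820 FPKM in wild type, and nos was at 0 in all. Most of these sums came from the sperm protein genes Mst84Dc and Mst87F. Without these genes the sums were 2347 and 2590.5 FPKM in mutant and 2557 and 2390.1 FPKM in wild type. What remained came mostly from dj, at 1518 and 1748 against 1860 and 1738 FPKM, and CG4434 (bb8), at 786 and 795 against 649 and 607 FPKM. Mst84Dc, Mst87F and CG4434 were higher in the mutant at an adjusted p under 0.05 (limma), and no germline marker was lower at that threshold. Wild-type replicate 1 stood apart in accessory gland markers, whose summed level was 2503 FPKM there and 9.50, 31.7 and 4.42 FPKM in the libraries of mutant replicate 1, mutant replicate 2 and wild-type replicate 2. Summed cyst cell, fat body and muscle markers were 16.1 to 16.7, 2.95 to 10 and 117 to 163 FPKM. The cyst cell markers went different ways: eya was at 13.4 and 13.1 FPKM in the mutant and 11.2 and 10.7 FPKM in wild type. In the same order, zfh1 was at 2.57 and 2.515 against 4.18 and 4.89 FPKM, and tj at 0.6477 and 0.4645 against 1.308 and 1.047 FPKM. Neither eya nor zfh1 passed, and tj was under the minimum. The part of these marker differences in the gene results was not tested. In whole testes, fewer cells of a type and less RNA per cell cannot be told apart.

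Most pericentromeric genes showed no difference past the threshold between mutant and wild type. At an adjusted p under 0.05 (limma, on log2(FPKM + 1), Benjamini-Hochberg adjustment over all 10784 loci), 14 rose and 16 fell in the mutant, and 117 passed in neither direction; 1 of the 14, CG15219, reversed under quantile normalization. Among those that rose were ttm3, a testis-expressed relative of a mitochondrial import protein, and scro, a homeodomain transcription factor. Those that fell included lt, Parp, which encodes poly(ADP-ribose) polymerase, CkIIalpha, the catalytic subunit of casein kinase 2, and lost, an RNA-associated protein of germ cells.

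The share that rose was 9.52% of the pericentromeric genes, beside 11.4% of all loci tested and 11% of the 7452 tested loci of the same arms outside the windows. The share that fell was 10.9%, beside 8.67% and 8.19%. Both shares lay near the background, which was 20.1% in either direction over all loci and 19.1% outside the windows. The median log2 fold change was -0.15 (quartiles -0.47 and 0.22), and 85 of the 147 values were negative, beside a median of -0.01 outside the windows. The libraries of the genotypes did not overlap for 39 genes that were higher and 58 that were lower in the mutant, which is 26.5% and 39.5%, beside 32.3% and 32.9% outside the windows. Where the values were quantile normalized, the split of the calls was 10 higher and 20 lower in place of 14 and 16, which is 6.8% and 13.6%. Over all loci the same scaling moved the split from 1229 higher and 935 lower to 849 and 982, which is 7.87% and 9.11%. When the trend of fold change with transcript length was removed from all loci, it was 12 and 5, or 8.22% and 3.42%, beside 6.39% and 5.83% over all loci. The share that fell then lay below that over all loci, where it had lain above it in the values as deposited. No pericentromeric gene remained past the threshold without mutant replicate 1 or without mutant replicate 2 (limma), although 28 and 25 of the 30 kept an unadjusted p under 0.05. Without wild-type replicate 1 and without wild-type replicate 2, the log2 fold changes of nAChRalpha4 were -1.878 and -1.911. Those of CG14647 were -3.585 and -3.767. Both genes are at 0 in both mutant libraries, which therefore show no spread for them. With 1 wild-type library left, such a fit cannot show whether these changes are stable. All 30 kept their direction in each of these 4 fits, which was fixed in advance. The libraries of the genotypes do not overlap for any of the 30, so leaving 1 out could not reverse a sign. The p-values measure only the spread between these few libraries.

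**Figure D1:**
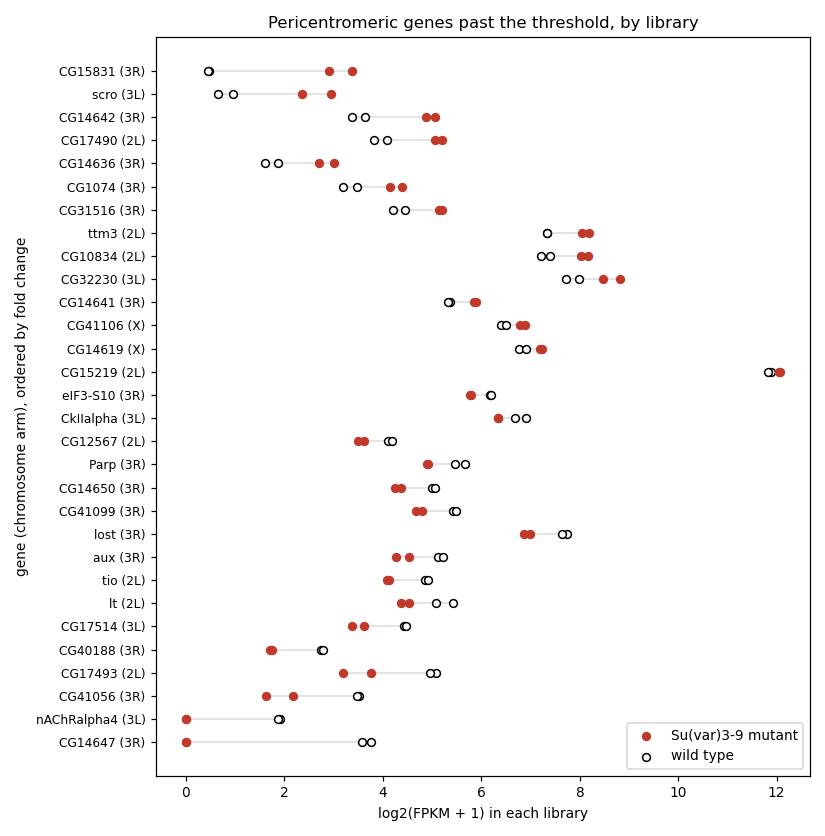
The 30 called genes are listed by fold change, with log2(FPKM + 1) of each library on the horizontal axis (filled points, mutant; open points, wild type). The points of the genotypes are separate for each gene, and CG14647 and nAChRalpha4 sit at 0 in both mutant libraries.

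Among genes that encode proteins of chromatin, transcription and RNA, 1 of 20 rose and 4 fell, with a median log2 fold change of -0.35. This group and those that follow were drawn up with results known, and their counts stand beside 11.4% higher and 8.67% lower over all loci. The groups also differ in transcript length, with a median longest transcript of 2794 bases in this one. Outside the windows, 17.9% of loci of 3000 bases or more fell, and 20.7% of those under 1500 bases rose. Parp (3R:3461351-3587054, minus strand) was at 28.7 and 29.3 FPKM in the mutant and 43.5 and 50.0 FPKM in wild type, with at least 116 estimated fragments in each library. Both mutant values lay below both wild-type values, and the gene fell by 0.67 on the log2 scale (SE 0.11, adjusted p = 0.0287, limma). The gene lost (3R:4403076-4407182, plus strand), which is needed to localise oskar mRNA in the oocyte, was at 117 and 126 FPKM in the mutant and 214 and 199 FPKM in wild type. It fell by 0.76 (SE 0.08, adjusted p = 0.0132, limma) with 517 and 560 estimated fragments in the mutant libraries. The translation initiation factor subunit eIF3-S10 (eIF3a) was at 53.6 and 54.4 FPKM against 71.9 and 72.4 FPKM, with close replicates (-0.41, SE 0.08, adjusted p = 0.0349, limma), but it was -0.16 with the length trend removed (adjusted p = 0.235, limma). The homeotic transcription factor gene tio, a relative of teashirt, was at 16.0 and 16.4 FPKM in the mutant and 28.1 and 29.1 FPKM in wild type (-0.78, SE 0.10, adjusted p = 0.0187, limma). The removal of the length trend also ended the calls of tio, at -0.39, and Parp, at -0.51.

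The only gene of this group that rose was scro (3L:24724162-24769123, plus strand), a homeodomain factor known from the brain and pharynx. It was at 4.10 and 6.72 FPKM in the mutant and 0.569 and 0.929 FPKM in wild type (1.85, SE 0.33, adjusted p = 0.0319, limma). Its values stood on 6.57 and 10.4 estimated fragments in the mutant and 1.22 and 2.41 in wild type, so it was a gene near the limit of detection. Its level in the mutant was low beside that of Parp or lost in the same libraries, on the FPKM scale.

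Other chromatin and RNA genes had lower mutant values without passing the threshold. Dbp80, an RNA helicase of mRNA export, missed it narrowly at 48.1 and 40.6 FPKM against 66.4 and 62.4 FPKM (-0.53, SE 0.12, adjusted p = 0.0502, limma). Its 4 libraries did not overlap. Set1, the main histone H3 lysine 4 methyltransferase, was at 5.02 and 5.51 FPKM against 7.55 and 8.60 FPKM (adjusted p = 0.104, limma), and the cohesin gene vtd was at 27.6 and 25.1 against 33.1 and 32.1 FPKM (adjusted p = 0.127, limma). AGO3, a Piwi-family protein of the piRNA pathway in germ cells, ranged from 12.9 to 19.7 FPKM in the mutant and from 20.9 to 25.3 FPKM in wild type (-0.50, SE 0.25, adjusted p = 0.228, limma). The difference in AGO3 was not detectable at this spread and depth. CycK, a cyclin partner of transcriptional kinases, stood the other way at 37.1 and 28.3 against 21.98 and 24.7 FPKM (adjusted p = 0.141, limma), and its exons overlap those of CG3651 on the other strand.

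Of 8 genes of membrane traffic, 3 fell and none rose (1 was higher at an unadjusted p under 0.05, limma), beside 8.67% lower over all loci. The median log2 fold change was -0.42, and the median longest transcript was 4082 bases. The classic heterochromatic gene lt (2L:22924795-22943135, plus strand) encodes a subunit of the HOPS complex, which tethers vesicles to lysosomes and lysosome-related organelles. It was at 22.3 and 19.7 FPKM in the mutant and 33.0 and 41.9 FPKM in wild type, so the groups did not overlap. The fall was 0.80 on the log2 scale (SE 0.16, adjusted p = 0.0411, limma), and the call was not stable: quantile normalization, a common library median and removal of the length trend (-0.44) each ended it. The auxilin gene aux, which acts in uncoating clathrin vesicles and in Notch signalling, was at 18.3 and 22.02 FPKM against 33.9 and 36.3 FPKM (-0.78, SE 0.13, adjusted p = 0.0307, limma). CG41099, an ankyrin-repeat protein gene placed with this group, was at 24.7 and 26.7 FPKM against 42.0 and 43.8 FPKM (-0.72, SE 0.10, adjusted p = 0.0200, limma). With the length trend removed, aux was at -0.48 and CG41099 at -0.43, and neither passed. CG32350, the Vps11 gene of the same HOPS complex as lt, was at 4.53 and 1.66 against 5.02 and 3.84 FPKM, with overlapping libraries. Vps24, an ESCRT subunit, stood higher in the mutant at 92.6 and 81.5 against 67.4 and 64.2 FPKM without passing (adjusted p = 0.063, limma).

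Of 6 signalling genes, 2 fell and none rose (limma, with 0 higher at an unadjusted p under 0.05). Their median longest transcript was 4010 bases. CkIIalpha, the member nearest the 3L window edge, was at 80.6 and 79.7 FPKM in the mutant and 119 and 103 FPKM in wild type (-0.46, SE 0.10, adjusted p = 0.0477, limma). The call of CkIIalpha ended with a pseudocount of 0.1, without a filter on low values, without the variance trend and with a replicate block in the fit. The nicotinic acetylcholine receptor subunit gene nAChRalpha4 was listed at 0 in both mutant libraries and at 2.76 and 2.68 FPKM in wild type, from 9.10 and 10.4 estimated fragments (adjusted p = 0.0284, limma). That is a low level in wild type, and with the shallower mutant libraries a level of 0 there does not show that the transcript was absent. The G protein gene cta, the secreted ligand gene fog and the kinase gene S6kII did not pass, and their fold changes were -0.28, -0.31 and 0.01.

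Of 9 nuclear genes of mitochondrial proteins, 2 rose and none fell (limma; 0 were lower at an unadjusted p under 0.05), and the median log2 fold change was 0.06. The difference between this group and the others was not tested, and its median longest transcript was shorter, at 1083 bases. The gene ttm3 (2L:22079632-22080738, plus strand), a relative of the import component Tim50, was at 265 and 293 FPKM in the mutant and 159.7 FPKM in each wild-type library. It rose by 0.80 (SE 0.07, adjusted p = 0.0109, limma) and passed in every alternative tried other than the removal of a library. CG32230 (ND-MLRQ), a subunit of respiratory complex I, was at 354 and 450 FPKM in the mutant and 252 and 210 FPKM in wild type (0.79, SE 0.16, adjusted p = 0.0414, limma), and its call ended under quantile normalization and with the length trend removed (0.47, adjusted p = 0.165, limma). The most abundant import gene, CG40042 (Tim23), was at 463 and 484 against 426 and 432 FPKM, a difference that did not pass (adjusted p = 0.141, limma), and Tim17b was level at 96.2 and 102 against 96.6 and 93.0 FPKM. The complex III subunit gene Ucrh was at 61.9 and 52.2 against 79.0 and 60.2 FPKM, and the libraries overlapped.

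The genes of cilia, centrioles and sperm in the windows did not pass in either direction (limma; 0 of 3 at an unadjusted p under 0.05). These were tilB, needed for the motile cilia and flagella of flies, at 47.3 and 53.4 against 61.5 and 56.4 FPKM, the centriole gene Cp110 at 49.9 and 60.9 against 81.4 and 58.3 FPKM, and CG14651 at 40.1 and 37.6 against 46.4 and 44.0 FPKM. On X, Cp110 was one of the genes with the highest mean level. The abundant 2L gene CG17494 (Slmap) was at 259.5 and 234 against 294 and 292 FPKM (adjusted p = 0.0909, limma), and the 3R genes CG9855 and CG11739 were at 191 to 193 against 206 to 208 FPKM and at 179 to 188 against 169 to 171 FPKM, also without passing.

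Genes of less known function made up most of the other calls, among them a pair of neighbours. Side by side on the plus strand of 2L lie CG17490 (22537668-22548451) and CG17493 (22550064-22556295), a centrin-like gene, and they changed in opposite directions. CG17490 was at 32.2 and 35.9 FPKM in the mutant and 13.1 and 16.0 FPKM in wild type, and rose by 1.17 on the log2 scale (SE 0.15, adjusted p = 0.0168, limma). CG17493 was at 8.13 and 12.6 FPKM in the mutant and 32.7 and 30.1 FPKM in wild type (-1.54, SE 0.23, adjusted p = 0.0236, limma). The mutant values of CG17493 rest on 14.3 and 21.3 estimated fragments. With the length trend removed, CG17493 was at -1.13 and did not pass (adjusted p = 0.0522, limma), and its call also ended without the variance trend. Exons of CG17490 overlap those of a non-coding gene, lncRNA:CR46268, on the same strand over 80.4% of their length, so which of them the fragments came from is uncertain. Fragments could also be shared between the neighbours, which was not tested.

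On 3R, CG14642 rose by 1.46 (SE 0.16, adjusted p = 0.0135, limma), from 9.40 and 11.4 FPKM in wild type to 32.6 and 28.3 FPKM in the mutant. CG1074 was at 20 and 16.7 FPKM in the mutant and 8.10 and 10.2 FPKM in wild type (0.94, SE 0.18, adjusted p = 0.0373, limma), and an antisense gene overlaps 82.5% of its exons. The mutant libraries were the higher ones for both. The fall of CG14647 stood out: it was listed at 0 in both mutant libraries and at 12.6 and 11.003 FPKM in wild type, from 53.2 and 48.7 estimated fragments (adjusted p = 0.00691, limma). Its exons overlap the opposite-strand gene CG9853 over 25.1% of their length, and CG9853 was at 35.0 and 27.1 FPKM in the mutant and 49.2 and 46.1 FPKM in wild type (adjusted p = 0.0643, limma). Whether strand was used in counting is not stated, so the reads of CG14647 and of its partner can be mixed. CG14636 rose by 1.12 (SE 0.23, adjusted p = 0.0442, limma), from 2.67 and 2.07 FPKM in wild type to 7.08 and 5.55 FPKM in the mutant, on 12.3 to 15.4 fragments. The calls of CG1074 and CG14636 each ended without a filter on low values, without the variance trend and with a replicate block in the fit. They also ended with the length trend removed, where the values were 0.86 and 0.99.

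The most abundant of all, CG15219 on 2L, was at 4267 and 4327 FPKM in the mutant and 3784 and 3615 FPKM in wild type, and passed with a difference of 0.22 (SE 0.04, adjusted p = 0.0350, limma). Under quantile normalization this reversed to -0.23 and passed the other way, and after removal of the length trend it was -0.11 and did not pass, so no direction can be given for CG15219. CG10834, its neighbour on the same strand, was at 261 and 285 FPKM in the mutant and 168 and 147 FPKM in wild type (0.79, SE 0.10, adjusted p = 0.0164, limma). On 3L, CG17514 (l(3)80Fj) fell by 0.96 (SE 0.14, adjusted p = 0.0231, limma), from 20.7 and 21.2 FPKM in wild type to 11.3 and 9.36 FPKM in the mutant. On 2L, CG12567 was at 10.2 and 11.2 FPKM in the mutant and 16.3 and 17.3 FPKM in wild type (-0.60, SE 0.13, adjusted p = 0.0462, limma). Its call ended with a pseudocount of 5, under quantile normalization and with the length trend removed. That removal also ended the calls of CG17514, at -0.45, and CG10834, at 0.46. On X, CG14619 (Usp2, a deubiquitinase) was at 145 and 151 against 108 and 119 FPKM (0.39, SE 0.08, adjusted p = 0.0442, limma), and CG41106 (Cnep1r1) was at 118 and 109 against 83.7 and 89.5 FPKM (0.39, SE 0.08, adjusted p = 0.0475, limma). Both of these X calls ended under quantile normalization, and with the length trend removed CG14619 was at 0.74 and passed while CG41106 was at 0.14 and did not (adjusted p = 0.353, limma). On 3R, CG31516, CG14641 and CG14650 also passed, with log2 fold changes of 0.84, 0.54 and -0.71.

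Across the 30 calls, the fold on FPKM ran from 1.31 to 21.4 (median 1.83) in the 13 genes that rose other than CG15219 and from 1.34 to 3.68 (median 1.72) in the 14 that fell and were above 0 throughout. A fold of 2 or more was seen in 10 of these 27, and 22 of the 30 had at least 20 estimated fragments in every library. Of the 22 members at a mean of 100 FPKM or more, 6 were called higher, CG15219 among them, and 1 lower, which is 27.3% and 4.55% beside 35.9% and 6.11% of the loci at that level outside the windows. Of the 35 under 5 FPKM, 3 rose and 2 fell, or 8.57% and 5.71%, beside 3.08% and 5.03% outside. The threshold of 1 FPKM passed near CG40006 (1.05 FPKM) and CG34357 (1.12 FPKM), and just under it lay CG41087 (0.991 FPKM) and Snap25 (0.888 FPKM). Listed levels of 0 were few: 10 members were at 0 in at least 1 library, 3 of them in both mutant libraries and 1 in both wild-type libraries.

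Several of the listed loci are fragments of a single gene. Pzl, a Piezo-like mechanosensitive channel gene, is split into 5 of the loci on 3R and Myo81F, an unconventional myosin gene, into 10, of which 2 were above the minimum and 4 were at 0 in all libraries. CG41056, a piece of Pzl (3R:2554124-2744070, minus strand), was at 2.10 and 3.50 FPKM in the mutant and 10.5 and 10.1 FPKM in wild type (-1.596, SE 0.25, adjusted p = 0.0251, limma). CG40188, another piece, was at 2.28 and 2.35 against 5.70 and 5.93 FPKM (-1.04, SE 0.19, adjusted p = 0.0350, limma). With the length trend removed they were at -1.16 and -0.60, and neither passed. That removal used the length of the whole gene, 6490 bases, for every piece of Pzl, although the locus of CG40188 spans 1930 bp. The length-adjusted values of the pieces are therefore uncertain. Of the 5 pieces, CG41056 and CG40188 fell, and the other 3 had negative fold changes (-1.33, -1.18 and -0.997) that did not pass. Summed over the pieces, Pzl had an estimated 26 and 20 fragments in the mutant and 133 and 124 in wild type. These sums are not scaled to the depth of the libraries.

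Of the pieces of Myo81F, CG15831 rose, at 6.49 and 9.31 FPKM in the mutant and 0.380 and 0.360 FPKM in wild type (2.68, SE 0.28, adjusted p = 0.0127, limma). The values of CG15831 rest on 8 and 11 fragments in the mutant and 1 in each wild-type library. Summed over the 10 pieces, Myo81F had 8 and 14.0 fragments in the mutant and 6.99 and 4.99 in wild type. In wild type the fragments lay mainly in other pieces than CG15831. Pieces of 1 gene share their source and are not separate observations: without the 7 such loci, 13 of 140 genes rose, 14 fell, and the median was -0.12.

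**Figure D2:**
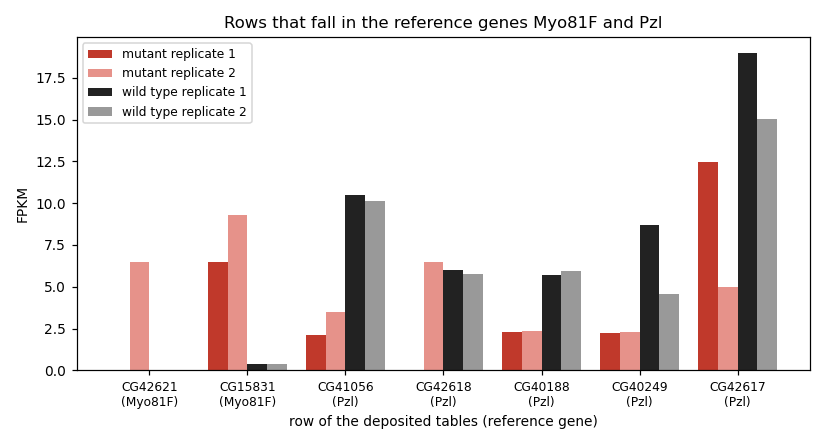
Bars give FPKM in each library for the 7 loci that are pieces of Myo81F and Pzl. The wild-type bars are the taller ones in CG41056 and CG40188 of Pzl and the mutant bars in CG15831 of Myo81F, while CG42621 and CG42618 rest on 3 fragments or fewer per library.

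By arm, the largest shift was that of 3L, where both the median level and most single genes were lower in the mutant. The 25 genes of 3L had median levels of 13.6 and 10.1 FPKM in the mutant and 20.7 and 20.6 FPKM in wild type, while the 1850 loci of 3L outside the window were at 15.2 and 14.8 against 16.3 and 14.8 FPKM. The median log2 fold change was -0.46 on 3L, with 18 of 25 negative, beside -0.01 outside the window. Of these genes 2 rose and 3 fell, so most of the lower values on 3L did not pass on their own. The difference of the medians inside and outside was -0.45, and -0.28 without mutant replicate 2 and -0.25 with a pseudocount of 5.

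Arm 2L had 4 genes that rose and 4 that fell of 30, with a median of -0.15 beside -0.03 for the 1820 loci outside. Without mutant replicate 2 the difference between inside and outside on 2L was 0.01 in place of -0.12, and without wild-type replicate 2 it was -0.01, so its direction was not kept. Arm 3R had 6 that rose and 9 that fell of 62, with a median of -0.07 beside -0.00 outside, and a difference of the medians of -0.06 that became -0.14 without mutant replicate 2. On X, 2 of 30 rose and none fell (limma), and 4 were higher and 0 lower at an unadjusted p under 0.05, while 6 genes were higher and 10 lower without overlap of the libraries, and the median was -0.06 beside 0.01 outside. Outside the windows the calls were 201 higher and 171 lower on 2L and 204 and 165 on 3L. They were 291 and 189 on 3R and 121 and 85 on X. As shares, 13.3% rose and 13.3% fell inside the window on 2L, beside 11.04% and 9.4% outside. The shares on 3L were 8% and 12%, beside 11.03% and 8.92% outside. Those on 3R were 9.68% and 14.5%, beside 12.8% and 8.32% of the 2272 loci outside. For X, 6.67% rose and none fell, beside 8.01% and 5.63% of the 1510 loci outside. The difference between arms was not tested. On chromosome 4, which is largely heterochromatic along its length, 3 of 62 loci rose and 16 fell, with a median of -0.39. That is 4.84% and 25.8%, beside 11.4% and 8.67% of all loci tested. The median longest transcript was 3842 bases on chromosome 4 and 1704 bases over all loci. Loci of 3000 bases or more outside the windows had a median of -0.32, with 17.9% lower. The part of transcript length in the chromosome 4 values was not tested.

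**Figure D3:**
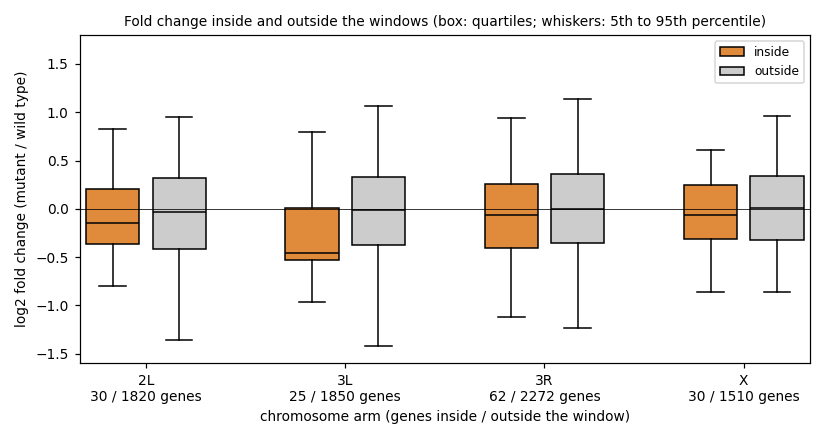
Boxes show the log2 fold change (mutant over wild type) of the genes inside (orange) and outside (grey) each window, with quartiles and the 5th to 95th percentile as whiskers. The inside box of 3L lies lowest, with a median of -0.46, and the outside boxes are centred near 0.

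Pooled over the arms, the window genes farther from the edge, toward the centromere, had a lower median fold change than those near it. This did not hold on each arm, and no test was made. The 65 genes more than 0.5 Mb into a window had a median log2 fold change of -0.25, with 42 negative, 4 that rose (6.15%) and 8 that fell (12.3%). The 82 genes within 0.5 Mb had a median of -0.04, with 10 that rose (12.2%) and 8 that fell (9.76%). Over all loci tested the shares were 11.4% and 8.67%. The deep genes were also less abundant, with a median wild-type level of 9.38 FPKM against 27.1 FPKM near the edge. By arm the deep medians were -0.22 on 2L (10 genes), -0.42 on 3L (19), -0.67 on 3R (13) and -0.05 on X (23). Near the edge the medians were 0.09 on 2L (20 genes), -0.47 on 3L (6), -0.03 on 3R (49) and -0.18 on X (7). The deep median was thus the lower one on 2L and 3R, and the higher one on 3L and X. The pooled deep and near sets also differ in their mix of arms. The deep value on 3R rests on the pieces of Pzl and Myo81F, since the other 6 deep genes there had a median of -0.13. Among these, Parp and CG41099 fell, and CG42402, CG41128 and Tim17b had positive fold changes. Over all arms, Spearman's rho between fold change and distance into the window was -0.149 across the 147 genes, which share the same 4 libraries.

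**Figure D4:**
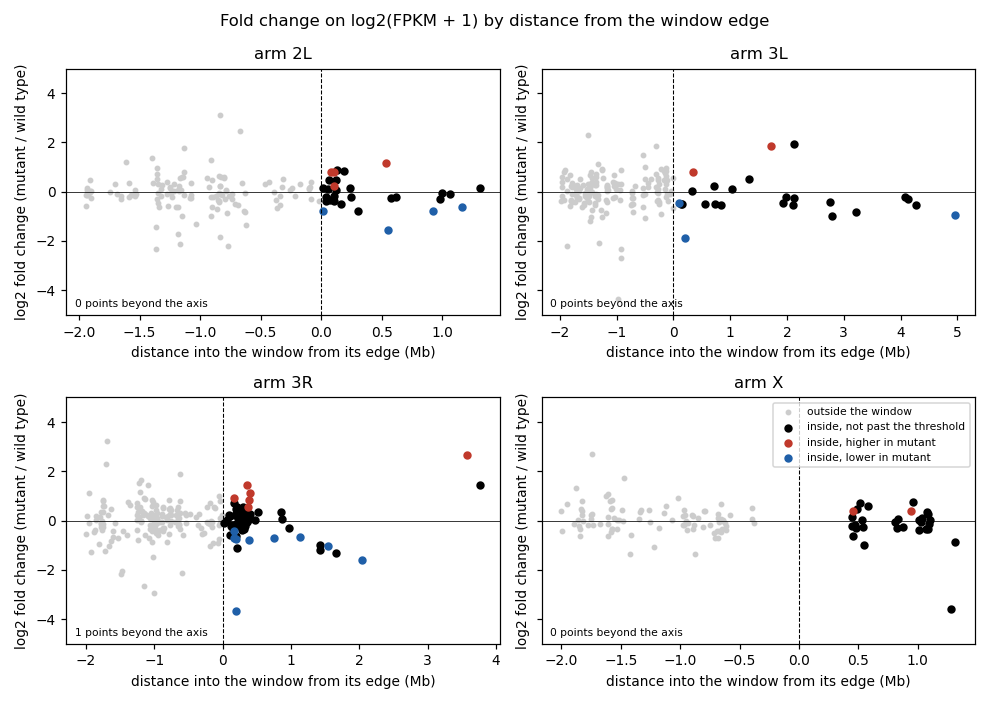
The log2 fold change of each gene is plotted against its distance from the window edge for each arm, with positive distances toward the centromere and grey points for loci up to 2 Mb outside. Called genes lie on both sides of 0 on 2L, 3L and 3R, and most deep genes of 3L lie below 0.

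The pericentromeric genes had longer transcripts and loci than the rest of their arms, and more of them held transposable element sequence. The median longest transcript was 2452 bases, beside 1862 outside, and the median locus 4661 bp beside 2377 bp. Loci of 20 kb or more made up 20.4% of the pericentromeric genes and 7.25% of the others. A transposable element annotated in the reference lay in the locus of 56 genes, 38.1%, beside 6.31% outside.

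Transcript length moved with the fold change in these libraries, inside and outside the windows alike. Spearman's rho was -0.326 over the pericentromeric genes and -0.386 outside. In transcripts under 1500 bases the median log2 fold change was 0.11 inside (39 genes) and 0.23 outside, from 1500 to 3000 bases it was -0.15 (55 genes) and 0.00, and from 3000 bases on it was -0.28 (52 genes) and -0.32. Of the 52 long-transcript genes 2 rose and 12 fell, which is 3.85% and 23.1%, beside 1.65% and 17.9% of the 1999 long-transcript loci outside. The median length of the called genes was 4352 bases for those that fell and 1524 bases for those that rose. In these counts and medians the pieces of Pzl and Myo81F carry the length of the whole gene. Loci of 20 kb or more had a median of -0.31 both inside and outside. The share of transposable element sequence in a locus had a rho of 0.0605 with the fold change inside the windows.

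With the length trend removed, the median of the pericentromeric genes was -0.11, beside 0.01 outside, and that of 3L was -0.37. The deep genes then had a median of -0.16. Of the 30 calls, 10 remained: ttm3, CG17490, scro, CG15831, CG31516, CG14642 and CG14619 above, and CkIIalpha, CG14647 and lost below. Dbp80 then fell by 0.64 (adjusted p = 0.0313, limma). The length trend follows the libraries as deposited, and its part in each fold change cannot be told apart from a change in the longer genes.

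**Figure D5:**
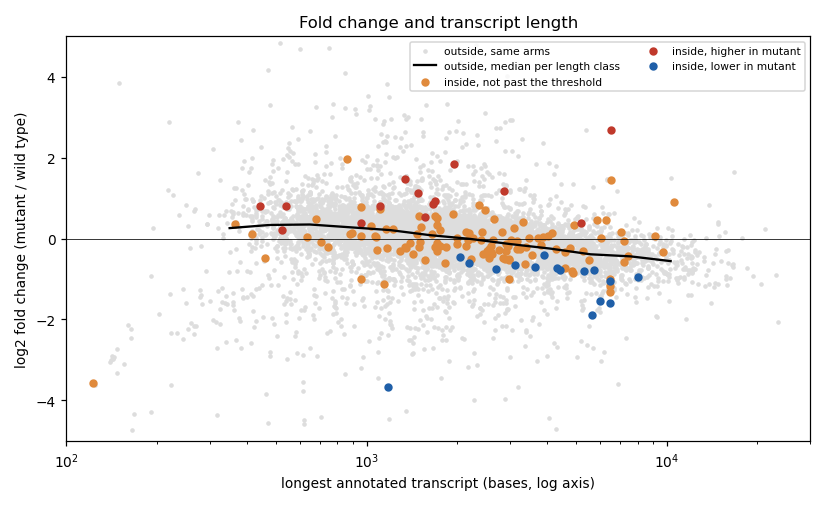
The log2 fold change is plotted against the length of the longest annotated transcript (log axis) for genes inside the windows (coloured) and outside (grey), with the outside median per length class as a line. The line falls from above 0 in short transcripts to below 0 in long ones, and the genes that fell inside the windows are mostly at the long end.

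Genes known from earlier work to reside in heterochromatin made up 29 of the 147 loci, from a list of 35 names. Of these 3 rose (CG17490, scro and CG15831) and 6 fell (CG17493, lt, CG41056, CG40188, Parp and CG41099), beside 11.4% and 8.67% of all loci tested. The median log2 fold change was -0.32, beside -0.15 for all pericentromeric genes. The list was drawn up with results of these data known and 7 of its 29 loci are pieces of Pzl and Myo81F, so its direction is no independent evidence. Other genes of the list at 20 FPKM or more that did not pass included alpha-Cat, the catenin of adherens junctions, at 29.8 and 25.2 against 26.6 and 27.6 FPKM, and Alg-2 at 22.6 and 18.1 against 25.9 and 25.1 FPKM. Among 28 genes whose products act on heterochromatin from elsewhere, 3 rose and 2 fell, beside the same shares over all loci. Those that rose were vig, HP1b and E(var)3-9, the last listed at 0 in wild type, and those that fell were Lam and LBR. The median of the 28 was -0.28. The gene of HP1 itself, egg and G9a were among the 23 that did not pass.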

How the data were processed

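Polyadenylated RNA of testes was measured in 2 libraries of each genotype, grouped by the labelled genotype. Each deposited file gives, per its headers, the FPKM of every gene and a 95% interval around it. The submitters' processing notes name TopHat, Cufflinks and build dm6; the sources used here give no version, annotation, setting or strand use. The authors' FPKM values are relative to a library's mapped fragments and to transcript length, so a shift in abundant genes or in the length profile moves other genes. Fragments behind a value were estimated from its upper bound, assuming counting error alone. They were not used in a count model.

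The 4 libraries were joined by locus. Loci with a mean of at least 1 FPKM were tested on log2(FPKM + 1) with limma 3.58.1 (eBayes, variance trend on) under R 4.3.3, using Benjamini-Hochberg adjustment over all 10784 loci and a threshold of 0.05. The added 1 shrinks fold changes of genes at low levels. The code was tested on simulated data with known changes, as a check of the code only, and no error rate of these calls is drawn from it. Transcript length, exon overlap and transposable elements came from the Ensembl annotation of dm6, whose longest transcript need not be the one expressed. A locus that is a piece of a gene was given the length of the whole gene. Overlapping and antisense genes are uncertain where fragments could be split.

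The windows, the members, the gene lists and the role groups were chosen with earlier results of these data known. Genes were named by rule: in each arm up to 4 called genes per direction with the largest fold change and at least 5 FPKM, the 3 with the highest level, listed heterochromatin-resident genes that passed or reached 20 FPKM, and the neighbours of the thresholds. Other genes named by role or overlap were chosen after their values were seen. Alternatives changed the pseudocount, the filter, the scaling, the length trend, the variance model, the replicate block and the windows, summed repeated names, and left out each library in turn. Replicate 1 minus replicate 2 had a correlation of -0.05 between the genotypes across loci, so the replicate numbers were not taken as pairs.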

Additional observations from a re-analysis of the deposited data

How the results depend on the processing

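With 2 libraries per genotype, no member passed without mutant replicate 1 or 2 at the adjusted threshold. Leaving out each library in turn gave 0 to 262 calls over all loci in place of 2164, 0 to 0 higher and 0 to 3 lower members. The median of the members minus that outside was -0.14 and then ranged from -0.13 to -0.075, with -0.19 to 0.0084 on 2L, -0.41 to -0.28 on 3L, -0.14 to -0.051 on 3R and -0.11 to -0.037 on X. The replicate block gave 8 higher and 10 lower members, and 1671 calls over all loci; the replicate numbers do not pair the samples. Without a filter on low values 8 members were higher and 14 lower, with 1038 higher and 859 lower over the 13408 loci of that fit. Without a variance trend 6 were higher and 9 lower, with 1103 calls over all loci. With the length trend removed 5 were lower, with 1316 calls over all loci. Windows narrower by 0.5 Mb held 4 higher and 8 lower members of 65 (6.15% and 12.3%), beside 11.4% and 8.67% over all loci tested. Wider windows, which hold more loci, held 25 and 26. Shares were not worked out for the wider windows, so their counts cannot be set beside the background.

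The difference between the medians was -0.15 with a pseudocount of 0.1, -0.080 with 5, -0.11 without a filter, -0.11 for genes above 0 in all libraries, -0.090 after quantile normalization, -0.12 without the length trend, -0.24 in narrower and -0.039 in wider windows, and -0.11 without the pieces of Pzl and Myo81F. On 2L it was 0.0011 without a filter. On 3L it was -0.25 with a pseudocount of 5, -0.24 without a filter and -0.32 after quantile normalization. On X it was -0.14 with a filter of 5 FPKM, 0.0043 for genes above 0 in all libraries, -0.033 after quantile normalization and -0.0043 without the length trend, in place of -0.07. CG15219 reversed to -0.23 after quantile normalization and to -0.11 without the length trend; the cause was not tested for any of these changes. Of the 30 called members, 8 passed in all of the 11 other alternatives that fitted them: ttm3, CG17490, scro, CG15831, CG31516, CG14642, CG14647 and lost. With means of 3.08 and 4.13 FPKM, scro and CG15831 were not fitted under the filter of 5 FPKM. CG14647 was not fitted among genes above 0 in all libraries. Depth limits the low genes most, since 60 and 55 members had under 20 estimated fragments in the mutant libraries.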

Other observations

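Removal of the length trend brought 7 pericentromeric genes past the threshold that had not passed as deposited (limma adjusted p). CycK, CG3262, Vps24, CG9776 and CG32944 were higher in the mutant, by 0.86, 0.62, 0.58, 0.42 and 0.57 on the log2 scale. Dbp80 and CG32945 were lower, by -0.64 and -0.39. These calls depend on the reference transcript lengths used.

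Some members had uneven or poorly supported values. The X-linked 5.8S ribosomal RNA locus 5.8SrRNA:CR40454 passed the minimum through 1 estimated fragment in wild-type replicate 1, which the short transcript turned into 141 FPKM, and it was listed at 0 in the other 3 libraries. SteXh:CG42398, a Stellate copy with near-identical neighbours, was at 34.7 and 0 FPKM in the mutant and 6.58 and 14.6 FPKM in wild type, from 22, 0, 11.9 and 28 estimated fragments. MED21 was at 13.6, 10.1 and 9.83 FPKM from 10.2, 7.58 and 17.2 fragments and listed at 0 in wild-type replicate 2, and its exons overlap those of Set1 on the opposite strand over 26.6% of their length.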
